A study of Mus musculus with 8 samples.

Results

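Hsd11b1, Lpl and Pnpla2 are 3 genes of glucocorticoid activation and fat use whose array signals were higher in mammary tumours of mice given SKI-606 than in vehicle tumours, and they are described here across 8 tumours. They were picked because of that difference, so their levels and differences are given as a description, without a test. All probes of the 3 genes were taken, 4 probes in all out of 24611 on the array, for 3 of 7386 genes named there. Each gene was found through the gene number in its probe identifier, and 3 of the 4 probes were detected on all 8 arrays. The tumours came from female mice of the MMTV-PyVmT model on the line FVB/N-Tg(MMTV-PyVT)634Mul/J, in which a viral promoter active in mammary epithelium drives the polyoma middle T antigen, so all 8 tumours carry the transgene. SKI-606, also called bosutinib, blocks the kinases Src and Abl. For 4 tumours the mice received it orally at 100 mg/kg, formulated in methocellulose (0.5%) with Tween 80 (0.4%). The other 4 tumours are labelled vehicle-treated, with the same methocellulose (0.5%) and Tween 80 (0.4%) recorded for them. Ages and treatment length are not stated in the labels, and the labels do not state that each array is a separate animal. The series asks whether the drug moves these tumours towards a differentiated state.

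Between 11837 and 12578 probes were detected per array, and the mean signal per array ran from 300.3 to 419.6. The signal of an 18S rRNA probe before normalization was 10194, 6592, 5378 and 4136 in SKI-606 replicates 1 to 4. In vehicle replicates 1 to 4 it was 13712, 9242, 11509 and 8898, and the reason for this difference was not tested. One label of SKI-606 replicate 2 describes cells from human islets, unlike its title and strain, and 12467 mouse probes were detected on that array, within the range of the others. The differences of the 3 genes are therefore also given without it, and so are those of other named genes whose difference exceeded 0.3 in size and moved by over 1.5 times. The SKI-606 arrays held the first positions of the chip and the vehicle arrays the last, so position and treatment cannot be told apart. Of 11 markers of mammary epithelium, 3 were measured, and the keratins Krt8, Krt18 and Krt19 were detected on all 8 arrays.

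Glucocorticoids act on the mammary gland as hormones of milk production and on fat tissue as regulators of fat storage and release. Hsd11b1 encodes the enzyme of the endoplasmic reticulum that regenerates active glucocorticoid, corticosterone in mice, from its inactive keto form inside the cell. Lpl encodes lipoprotein lipase, a secreted enzyme that frees fatty acids from the triglyceride of circulating lipoproteins, and both fat cells and the milk-producing epithelium use it to take up fat. Pnpla2 encodes adipose triglyceride lipase, which starts the breakdown of triglyceride stored in lipid droplets.

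All 3 genes had higher mean signals under the drug, but the promoter reference held no window for Lpl. The sequences around the start sites of Hsd11b1 and Pnpla2 are shown, so a reader can see which short motifs these windows hold. They are the RefSeq windows of 300 bases in build GRCm38.p6, from 250 bases before to 50 after the start, at chr1:193242311-193242610 on the minus strand for Hsd11b1 and at chr7:141454938-141455237 on the plus strand for Pnpla2, and capitals mark every motif match on either strand.
Hsd11b1: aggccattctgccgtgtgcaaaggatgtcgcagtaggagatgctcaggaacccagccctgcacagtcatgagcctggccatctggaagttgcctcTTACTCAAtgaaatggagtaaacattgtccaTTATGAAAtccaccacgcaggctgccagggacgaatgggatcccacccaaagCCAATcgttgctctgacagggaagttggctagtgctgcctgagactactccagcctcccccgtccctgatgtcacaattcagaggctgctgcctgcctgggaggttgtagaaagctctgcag
Pnpla2: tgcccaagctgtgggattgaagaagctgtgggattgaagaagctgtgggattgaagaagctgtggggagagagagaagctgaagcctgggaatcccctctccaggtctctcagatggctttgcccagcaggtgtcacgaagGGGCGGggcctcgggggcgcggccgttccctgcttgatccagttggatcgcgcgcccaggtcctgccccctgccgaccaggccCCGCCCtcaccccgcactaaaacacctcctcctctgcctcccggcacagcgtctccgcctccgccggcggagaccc
The window of Hsd11b1 held 2 matches to the C/EBP pattern TTNNGNAA, beginning 155 and 124 bases before the start, and 1 CCAAT box (CCAAT), beginning 72 bases before it. Of 32851 promoter windows in the same table, 40.7% held the C/EBP pattern and 37.4% the CCAAT box, so both are common motifs. The window of Pnpla2 held 2 GC boxes (GGGCGG), beginning 109 and 26 bases before the start, a motif found in 35.7% of windows. Its GC content was 65.3%, against 54.7% in the window of Hsd11b1, with 18 and 6 CG dinucleotides. Neither window held the glucocorticoid response element, AGAACA then any 3 bases then TGTTCT (0.00913% of windows), the single site AGAACA (19.0%), the PPAR element, AGGTCA repeated after 1 base (0.0396%), the single nuclear receptor site AGGTCA (16.3%) or a TATA box, TATAAA (13.6%). Both longer elements contain the single sites, and a match or its absence says nothing about binding.

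Hsd11b1 was higher in every SKI-606 tumour than in every vehicle tumour. Its normalized log2 signal was 9.88, 9.25, 8.69 and 9.24 in SKI-606 replicates 1 to 4. In vehicle replicates 1 to 4 it was 7.76, 8.10, 8.03 and 7.86. The vehicle tumours lay close together, and the nearest values of the 2 groups, SKI-606 replicate 3 and vehicle replicate 2, were 0.59 apart on the log2 scale. The group means were 9.26 ± 0.49 and 7.94 ± 0.16 (SD, n = 4 each), a difference of 1.33 ± 0.23 (log2, SE of the limma fit), or 2.51-fold. Over all 12281 probes that passed the detection filter, 3.76% had every SKI-606 value above every vehicle value, and since this gene was chosen on the contrast nothing is read from that share.

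The Hsd11b1 probe, scl015483.1_7-S, had a detection p of 0 on each array. Before any correction its intensity was 709, 678.5, 441.9 and 693.3 in SKI-606 replicates 1 to 4. It was 269.6, 386, 323.6 and 219.5 in vehicle replicates 1 to 4, so the groups did not overlap on the scanner's scale either. SKI-606 replicates 1, 2 and 4 differed little there, and the lead of replicate 1 in the normalized values came with the lowest mean signal of all arrays (300.3). The separation of all 4 SKI-606 from all 4 vehicle values was also seen without background correction, with median scaling, with cyclic loess, with an offset of 50 and in the authors' normalized table, where the differences lay between 1.06 and 1.32. Without SKI-606 replicate 2 the difference was 1.33.

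**Figure D1:**
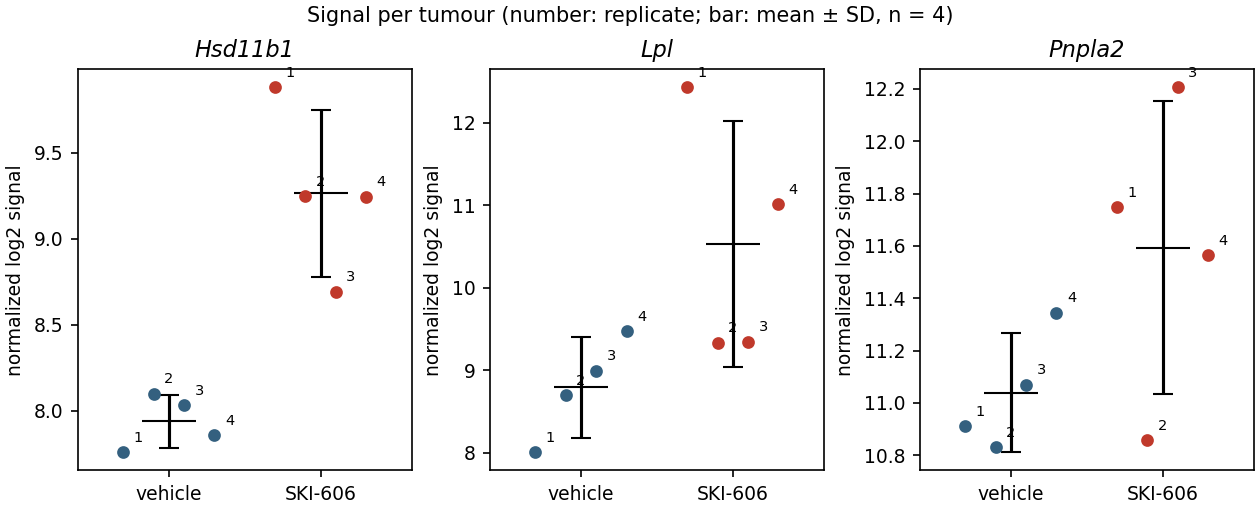
Normalized log2 signal (vertical axis) of Hsd11b1, Lpl and Pnpla2 in the 4 vehicle and 4 SKI-606 tumours. Points are tumours with their replicate number, and black bars give the mean ± SD. All 4 SKI-606 values of Hsd11b1 lie above the vehicle values, whereas Lpl and Pnpla2 overlap between the groups.

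Lpl had the widest spread of the 3 genes, and its high mean under the drug came from SKI-606 replicates 1 and 4. Its probe scl0016956.1_234-S read 12.43, 9.33, 9.34 and 11.01 on the log2 scale in SKI-606 replicates 1 to 4. In vehicle replicates 1 to 4 it read 8.01, 8.69, 8.99 and 9.47. SKI-606 replicates 2 and 3 were below vehicle replicate 4 and above the other vehicle tumours, so the groups overlapped. Replicate 1 was 12.4-fold and replicate 4 4.66-fold above the vehicle mean, while replicates 2 and 3 were each about 1.46-fold above it. The group means were 10.53 ± 1.49 and 8.79 ± 0.61 (SD, n = 4 each), a difference of 1.74 ± 0.72 (log2, SE), or 3.33-fold. Leaving out SKI-606 replicate 1 gave 1.10, or 2.15-fold, and leaving out replicate 2 gave 2.14, or 4.39-fold.

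The spread of Lpl between tumours of one group was itself large. SKI-606 tumours covered an 8.53-fold range and vehicle tumours a 2.76-fold range. The SD in SKI-606 tumours exceeded that of 99.3% of 4137 named genes in the same arrays, and the SD in vehicle tumours that of 94.8%. For Hsd11b1 these shares were 87.6% and 56.6%, and for Pnpla2 90.9% and 75.7%, so among vehicle tumours Hsd11b1 was close to the middle of all genes.

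Overlap of the Lpl groups depended on scaling. Before normalization the intensities of Lpl were 4575.5, 717.5, 690.6 and 2274.7 in SKI-606 replicates 1 to 4 and 314.9, 550.7, 598.5 and 610.8 in vehicle replicates 1 to 4, so that no values overlapped. Vehicle replicate 4 had the second lowest mean signal of the arrays (313), and between-array normalization raised it above SKI-606 replicates 2 and 3 under each method tried. A second Lpl probe, scl016956.10_30-S, was not detected on any array, with a signal between 30.3 and 37.5 and detection p from 0.636 to 0.983. It therefore gives no second reading of the gene, and the files do not give the sequence of either probe.

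Pnpla2 was higher in 3 of 4 SKI-606 tumours. Its probe scl0066853.2_236-S read 11.75, 10.86, 12.21 and 11.56 on the log2 scale in SKI-606 replicates 1 to 4. In vehicle replicates 1 to 4 it read 10.91, 10.83, 11.07 and 11.35. SKI-606 replicate 2 lay among the vehicle tumours, below 3 of them, and the other 3 SKI-606 tumours lay above all of them. The group means were 11.59 ± 0.56 and 11.04 ± 0.23 (SD, n = 4 each), a difference of 0.55 ± 0.27 (log2, SE), or 1.47-fold. Leaving out SKI-606 replicate 2 gave 0.80. Leaving out SKI-606 replicate 3, the tumour with the highest value, gave 0.35.

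The 3 genes did not peak in the same tumours. Hsd11b1 and Lpl were both highest in SKI-606 replicate 1, which was the second highest for Pnpla2. Pnpla2 was highest in SKI-606 replicate 3, which was the lowest SKI-606 tumour for Hsd11b1. SKI-606 replicate 2 ranked 2 of 8 for Hsd11b1, 5 of 8 for Lpl and 7 of 8 for Pnpla2. Among vehicle tumours, replicate 4 was the highest for both lipases and ranked 7 of 8 for Hsd11b1. In these bulk tumour samples, a change in the number of cells of a type and a change in RNA per cell cannot be told apart.

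**Figure D2:**
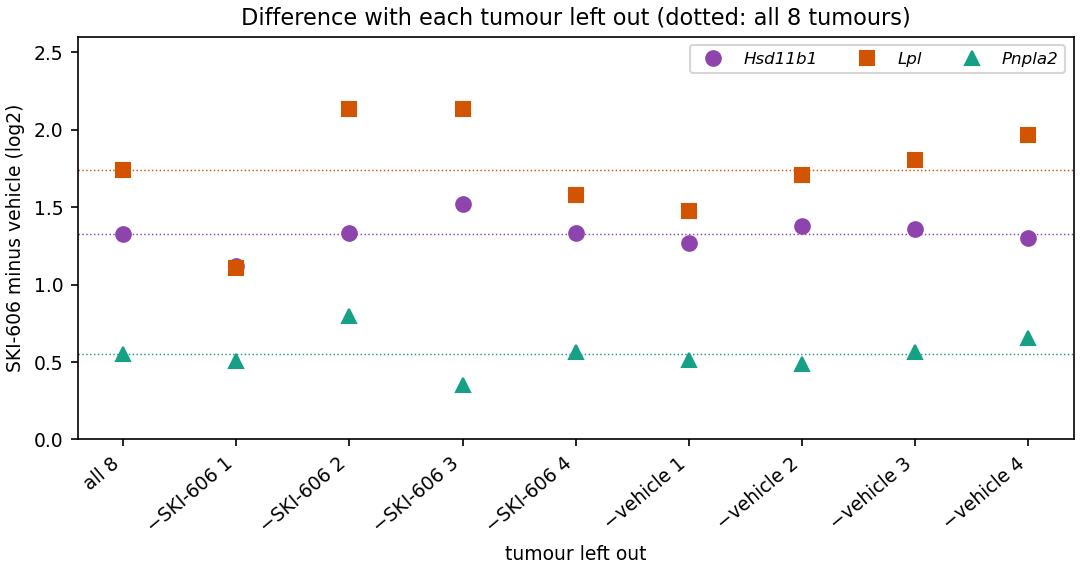
Difference between SKI-606 and vehicle means (log2, vertical axis) for the 3 genes with all 8 tumours and with each tumour left out in turn (horizontal axis). Dotted lines mark the value with all 8. Every difference stays above 0, Lpl drops to 1.10 when SKI-606 replicate 1 is dropped, and Pnpla2 to 0.35 when replicate 3 is.

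Around these genes, 60 other measured genes of glucocorticoid action, fat handling and cell type were compared in the same limma fit. None of the 60 passed an adjusted p of 0.05 (0 called, with 0.00814% of 12281 probes called in all), and 15 had an unadjusted p under 0.05, where 16.3% of all probes did, 6.04% higher and 10.3% lower. With array weights 185 of the 12281 probes were called, and 3 of the 60 genes passed: the adipogenic factor Ebf1, the matrix gene Fbln1 and the vessel gene Robo4. The groups did not overlap for 10 of the 60, 9 higher and 1 lower with the drug, while 11.2% of all probes did not overlap, 3.76% higher and 7.42% lower. The median difference over all probes was -0.0083 on the log2 scale.

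Glucocorticoid genes other than Hsd11b1 showed no common direction. Of the activation and receptor list, 8 of 18 genes were measured. Leaving out Hsd11b1, 4 were higher and 3 lower, with a median difference of 0.035 and 0 past the threshold in either direction. Ncor1, a corepressor of nuclear receptors, differed by 0.30 ± 0.14 (log2, SE) and the coactivator Ncoa1 by 0.26 ± 0.18. With median scaling these differences were 0.055 and 0.011. Srd5a1, a steroid reductase, differed by -0.09 ± 0.05 and was detected on 4 of 8 arrays. Hsp90ab1, a chaperone that holds the glucocorticoid receptor ready for hormone, differed by -0.13 ± 0.12 with its brightest probe, and its other 2 probes gave -0.55 and -0.57 (adjusted p = 0.235 and 0.231).

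The nearest partners of Hsd11b1 could not be read. The probe of Hsd11b2, which inactivates glucocorticoid and so opposes Hsd11b1, was not detected on any array, with signals of 29.8 to 42. The probe of Nr3c1, the glucocorticoid receptor, was detected on 3 of 8 arrays. H6pd, which supplies the NADPH that Hsd11b1 uses, had no probe named here.

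Of 24 listed genes known to be induced by glucocorticoids, 7 were measured, 1 higher and 6 lower, with 0 past the threshold in either direction, where 47.4% of all probes had a difference above 0. The median difference was -0.08, and its sign turned with a replicate block (0.033) and when SKI-606 replicate 3 was dropped (0.0011). Errfi1, a feedback inhibitor of EGF receptor signalling, read 10.22, 11.31, 10.81 and 11.22 in SKI-606 replicates 1 to 4 and 12.36, 11.58, 12.10 and 11.63 in vehicle replicates 1 to 4. All its SKI-606 values lay below the vehicle values, a difference of -1.03 ± 0.28 (limma adjusted p = 0.171). The metallothionein gene Mt1 differed by -0.37 ± 0.28, by -0.56 when SKI-606 replicate 1 and by -0.095 when replicate 4 was dropped, by -0.23 with cyclic loess and by -0.77 with array weights. The transcription factor gene Cebpb differed by -0.08 ± 0.17. Zbtb16 was detected on 2 of 8 arrays and Tsc22d3, a common marker of glucocorticoid action, on none.

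**Figure D3:**
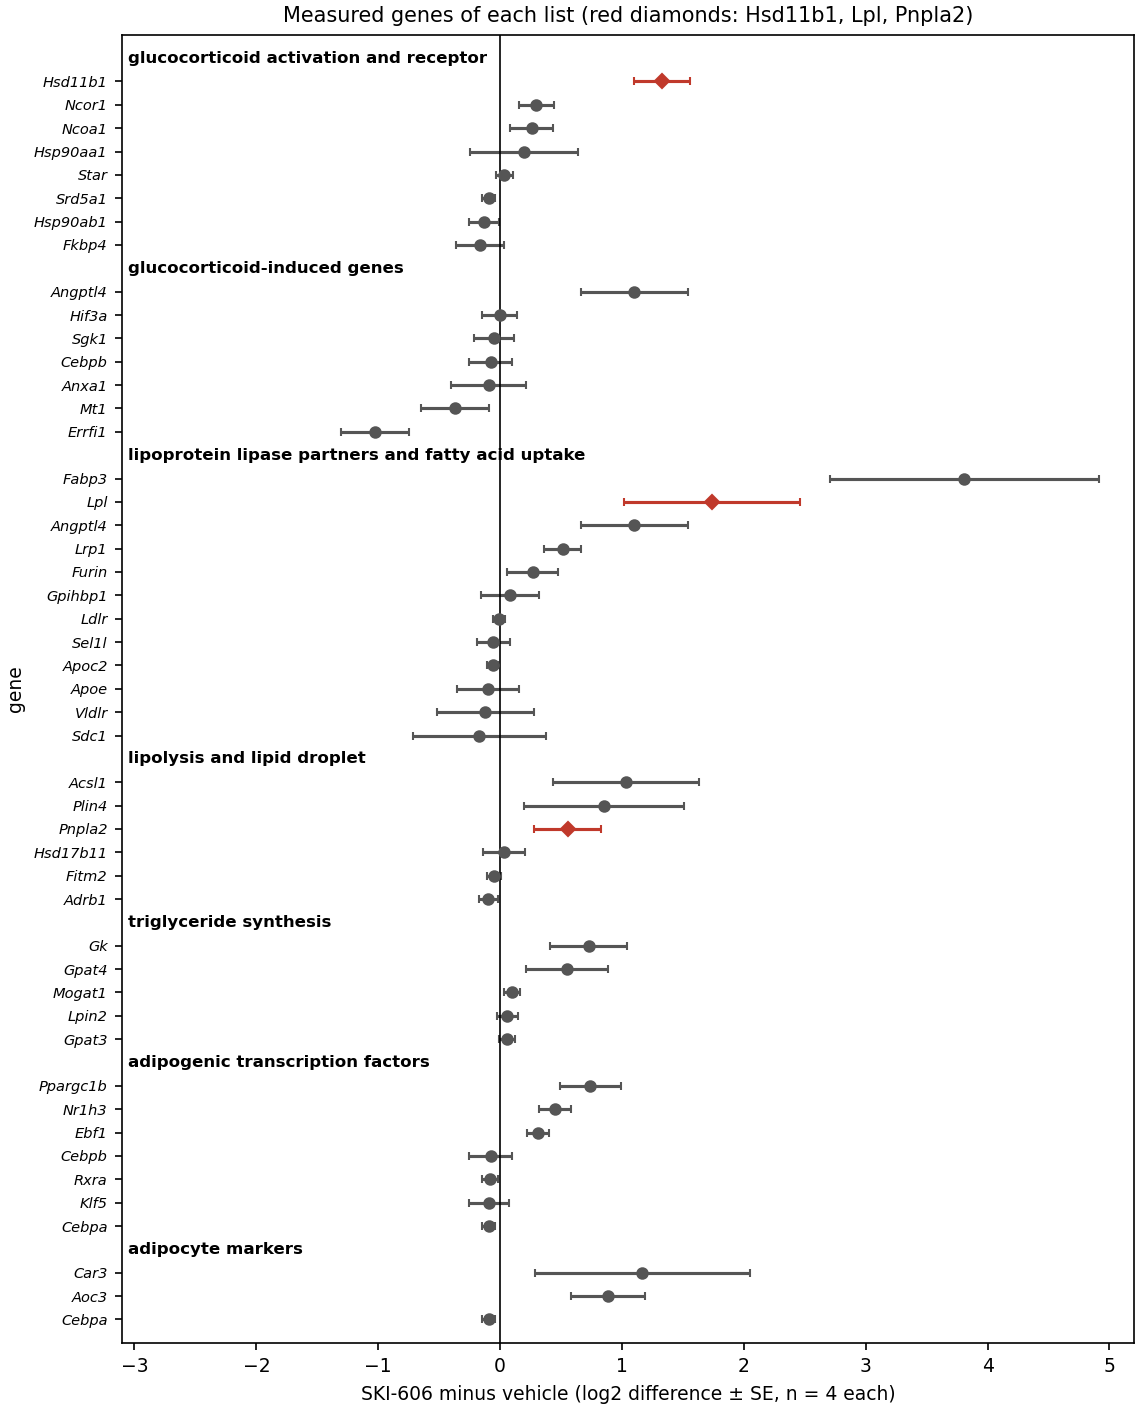
Difference between SKI-606 and vehicle tumours (log2, mean ± SE of the limma fit, n = 4 each; horizontal axis) for each measured gene of 7 lists. Red diamonds are Hsd11b1, Lpl and Pnpla2. Fabp3 has the largest difference shown (3.81) and Errfi1 the lowest (-1.03), and none of the other genes passed the adjusted threshold.

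Of the genes that act with Lpl or take up its products, 12 of 28 were measured, and apart from Lpl 5 were higher and 6 lower, with a median difference of -0.0086 and 0 past the threshold in either direction. Fabp3, which carries fatty acids inside muscle and milk-producing epithelial cells, read 13.90, 11.00, 9.32 and 8.92 in SKI-606 replicates 1 to 4 and 6.16, 6.20, 7.35 and 8.20 in vehicle replicates 1 to 4. The groups did not overlap, and the SKI-606 tumours alone spanned a wide range, with replicate 1 the highest as for Lpl but replicate 2 second. Its difference was 3.81 ± 1.10 on the log2 scale, or 14.0-fold (limma adjusted p = 0.183), and 2.77 to 4.43 with 1 tumour left out. Lrp1, a receptor for lipoprotein remnants, did not overlap either and differed by 0.51 ± 0.15 (limma adjusted p = 0.185).

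Angptl4, a secreted inhibitor of lipoprotein lipase that is also induced by glucocorticoids and by fatty acids, read 11.75, 10.39, 9.94 and 10.93 in SKI-606 replicates 1 to 4. In vehicle replicates 1 to 4 it read 9.72, 9.47, 10.42 and 9.002. Replicates 1 and 4 of SKI-606, the tumours highest in Lpl, were also the highest here, while vehicle replicate 4 was the lowest of all, unlike for Lpl. The difference was 1.10 ± 0.44 (limma adjusted p = 0.278). Gpihbp1, which holds lipoprotein lipase on capillary endothelium, had a mean of 7.27 ± 0.48 with the drug and 7.19 ± 0.19 without it (SD, n = 4 each), a difference of 0.08 ± 0.24 whose sign turned with median scaling (-0.13). The lipoprotein receptor gene Vldlr differed by -0.12 ± 0.40 and Apoc2, the activator of lipoprotein lipase, by -0.06 ± 0.05. The fatty acid transporter gene Cd36 was detected on 1 of 8 arrays, and Lmf1, which matures the lipase, had no probe named here.

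Of the lipolysis and lipid droplet genes, 6 of 27 were measured, and apart from Pnpla2 3 were higher and 2 lower, with a median difference of 0.033 and 0 past the threshold in either direction. Acsl1, which activates fatty acids by joining them to coenzyme A, was at 9.48 in SKI-606 replicate 1 and at 6.55, 6.85 and 7.34 in replicates 2 to 4, with vehicle tumours between 6.34 and 6.65. Its difference of 1.03 ± 0.60 (limma adjusted p = 0.457) was 0.39 without SKI-606 replicate 1. Plin4, a coat protein of lipid droplets, read 8.46, 6.77, 8.26 and 9.78 in SKI-606 and 6.61, 7.17, 7.58 and 8.50 in vehicle replicates 1 to 4. Its highest vehicle tumour was replicate 4, as for Lpl and Pnpla2, and its difference was 0.85 ± 0.66 (limma adjusted p = 0.586). That difference was 1.37 when SKI-606 replicate 2, 0.36 when SKI-606 replicate 4 and 0.57 when vehicle replicate 1 was dropped, and 1.64 with array weights. Adrb1 and Fitm2 differed by -0.10 ± 0.08 and -0.05 ± 0.06, and Adrb1, a receptor for the hormones that start lipolysis, was detected on only 4 arrays. The direct partners of the Pnpla2 enzyme, namely its coactivator Abhd5, its inhibitor G0s2, the lipases Lipe and Mgll that act after it and the droplet protein Plin1, had no probe named here.

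All 5 measured genes of triglyceride synthesis, of 17 listed, had a difference above 0, though that of Lpin2 was -0.04 with median scaling, and 0 passed the threshold in either direction. The median difference was 0.10, beside -0.0083 over all probes. Gk, glycerol kinase, differed by 0.73 ± 0.32 (limma adjusted p = 0.319), by 0.42 when SKI-606 replicate 1 was dropped and by 0.45 with median scaling. Gpat4, which adds the first fatty acid to glycerol phosphate, differed by 0.55 ± 0.34 (limma adjusted p = 0.487), with SKI-606 replicate 1 at 12.55 and every other tumour between 10.74 and 11.17, and by 0.18 when that replicate was dropped. Mogat1, Gpat3 and Lpin2 differed by 0.10 ± 0.06, 0.06 ± 0.07 and 0.06 ± 0.08. Mogat1 and Gpat3 were dim, detected on 5 and 7 of 8 arrays.

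Among adipogenic transcription factors 7 of 17 were measured, 3 higher and 4 lower, with a median difference of -0.08 and 0 past the threshold in either direction. The groups did not overlap for Ppargc1b, a coactivator of oxidative metabolism, at 0.74 ± 0.25 (limma adjusted p = 0.219), nor for Nr1h3, the oxysterol receptor LXR alpha, at 0.45 ± 0.13 (limma adjusted p = 0.185). Ebf1 differed by 0.31 ± 0.09 (limma adjusted p = 0.183). Cebpa, a driver of fat cell differentiation, differed by -0.09 ± 0.05 and was detected on 6 of 8 arrays.

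**Figure D4:**
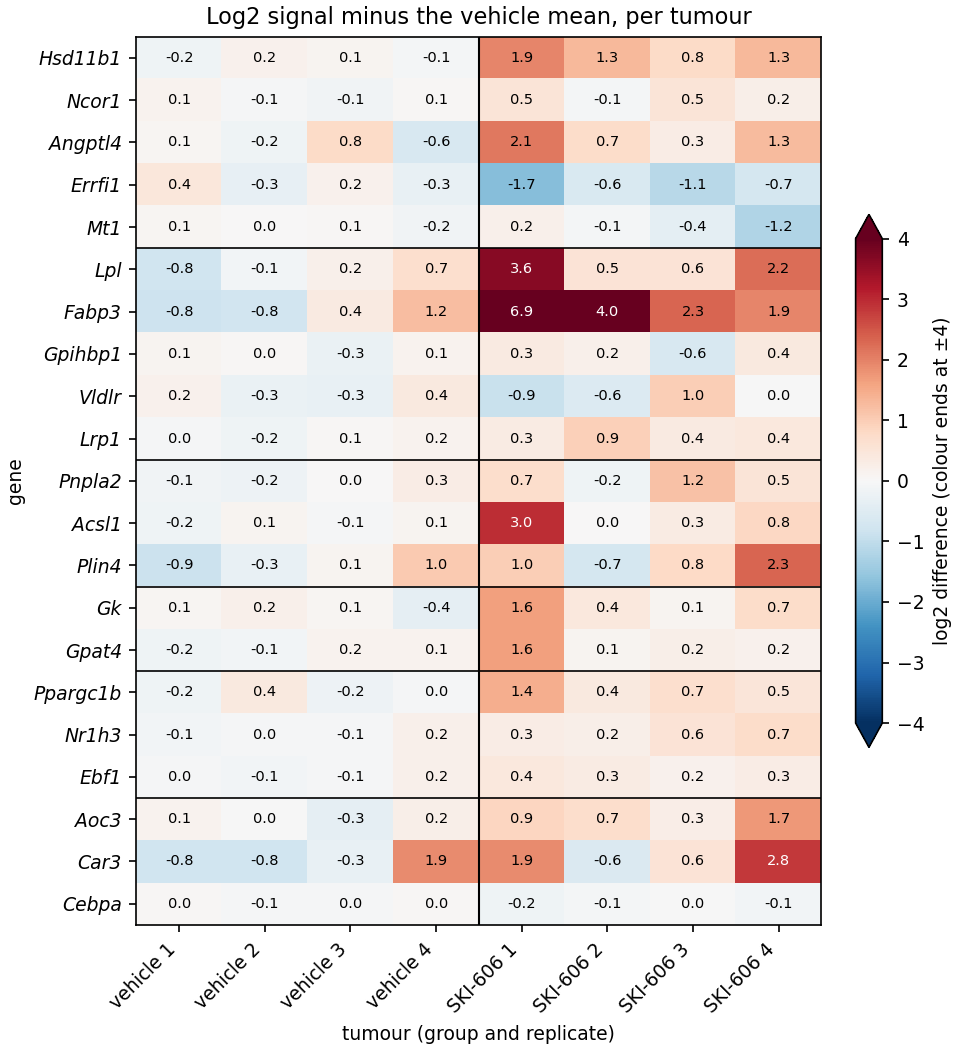
Log2 signal minus the vehicle mean for each tumour (columns) and gene (rows). Lines divide glucocorticoid genes, lipoprotein lipase and uptake genes, lipolysis genes, triglyceride synthesis, adipogenic factors and adipocyte markers. Colour ends at ±4, and Fabp3 reaches 6.9 in SKI-606 replicate 1. Lpl, Angptl4, Acsl1, Gk and Gpat4 are highest in SKI-606 replicate 1, and Car3 and Plin4 in SKI-606 replicate 4.

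Only 5 of 20 adipocyte markers had a probe named here, and 3 were measured. Car3 and Aoc3 were both highest in SKI-606 replicate 4 and next in replicate 1, the tumours highest in Lpl, whereas Cebpa was not. Of the defining markers Fabp4 was not detected on any array (signal 33.5 to 41.6). The carbonic anhydrase gene Car3, abundant in fat tissue and muscle, read 11.51, 9.04, 10.17 and 12.44 in SKI-606 and 8.84, 8.81, 9.34 and 11.50 in vehicle replicates 1 to 4, a difference of 1.17 ± 0.88 (limma adjusted p = 0.577). It was 1.75 when SKI-606 replicate 2, 0.62 when SKI-606 replicate 4 and 1.79 when vehicle replicate 4 was dropped, and 2.21 with array weights. Its second probe gave 0.56 ± 0.60. Aoc3, an amine oxidase of fat cells and vessels, differed by 0.89 ± 0.30 with no overlap (limma adjusted p = 0.224), and by 1.34 with array weights. Cebpa, the other marker measured, was dim, detected on 6 of 8 arrays, and was lowest in SKI-606 replicate 1 (6.01). The summed signal of the 3 markers, mostly that of Car3, ran from 810.6 to 6071 in SKI-606 and from 652 to 3129 in vehicle tumours. The mean log2 level of the 3 markers relative to vehicle was 0.87, 0.0069, 0.26 and 1.48 in SKI-606 replicates 1 to 4. Vehicle replicate 4, the highest vehicle tumour for Lpl, was also the highest vehicle tumour for Car3 (11.50) and Aoc3 (7.31). Aoc3 lay below every SKI-606 tumour there, as it did in every vehicle tumour. The part of fat cells in the Lpl and Pnpla2 differences was not tested. The muscle marker Actn3, 1 of 6 measured, was at 7.61 in SKI-606 replicate 1 and at 7.74 in vehicle replicate 4, and elsewhere between 6.02 and 6.14.

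Markers of fibroblasts and of vessels had higher means in the SKI-606 tumours, as Hsd11b1 did. Fibroblasts are a known site of Hsd11b1 expression. All 5 measured fibroblast markers, of 10 listed, had a difference above 0, with Col1a1 at -0.089 under array weights. Their summed signal was 7212 to 10991 in SKI-606 and 3040 to 6987 in vehicle tumours. Within the SKI-606 group this sum was lowest in replicate 1 and highest in replicate 3. Hsd11b1 was instead highest in replicate 1 (9.88) and lowest in replicate 3 (8.69). Dcn gave the largest part of the fibroblast sum, and the Dcn groups overlapped (lowest SKI-606 value 11.84, highest vehicle value 12.33). Fbln1 differed by 1.08 ± 0.27, Dcn by 0.90 ± 0.33, Col3a1 by 1.11 ± 0.80, Col1a1 by 0.42 ± 0.32 and Col1a2 by 0.15 ± 0.08. The difference of Col3a1 was 0.26 without vehicle replicate 4, the tumour with the lowest value, and 0.28 with array weights. That of Col1a1 was 0.19 when SKI-606 replicate 1 and 0.73 when replicate 4 was dropped, and 0.21 with median scaling. All 4 measured endothelial markers, of 8 listed, were higher, with summed signals of 1223 to 1789 against 870.8 to 1092. The endothelial sum was highest in SKI-606 replicate 1 and, within that group, lowest in replicate 3, as Hsd11b1 was. Robo4, Emcn, Pecam1 and Eng differed by 0.71 ± 0.14, 0.55 ± 0.16, 0.51 ± 0.16 and 0.41 ± 0.13, and with median scaling by 0.44, 0.30, 0.33 and 0.20. No fibroblast or endothelial marker passed the adjusted threshold in the main fit on all 8 tumours. Fbln1 passed it without SKI-606 replicate 1 (1.35), and Fbln1 and Robo4 passed it with array weights. The part of these cells in the Hsd11b1 difference was not tested.

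Macrophages also make lipoprotein lipase. Of 10 macrophage markers 5 were measured, 1 higher and 4 lower, and their summed signal was 2448 to 4354 in SKI-606 and 3424 to 3827 in vehicle tumours. Csf1r differed by 0.35 ± 0.12, C1qb by -0.27 ± 0.15, Lyz2 by -0.46 ± 0.26, C1qa by -0.18 ± 0.13 and Cd68 by -0.03 ± 0.27. Csf1r was at 0.086 with median scaling, and Lyz2 at -0.74 when SKI-606 replicate 2 was dropped (limma adjusted p = 0.0584). The part of macrophages in the Lpl difference was not tested. The keratins Krt8, Krt18 and Krt19 of the tumour epithelium differed by -0.09 ± 0.17, -0.01 ± 0.30 and 0.21 ± 0.25, with a summed signal of 9782 to 18930 in SKI-606 and 11926 to 14937 in vehicle tumours.

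The genes whose signals most resembled each of the 3 were sought among 1233 other named genes that varied between arrays, by Pearson correlation over the 8 arrays. These correlations hold both the group difference and the variation within groups, and are a description only. For Hsd11b1 they were the bile-salt-activated lipase gene Cel (r = 0.93), Robo4 (r = 0.93) and Emcn (r = 0.92), and after removing the group means r was 0.81, 0.63 and 0.77. For Lpl they were the collagen hydroxylase gene P3h2 (r = 0.95), the endocytosis gene Ehd4 (r = 0.94) and Acaca (r = 0.93), which encodes acetyl-CoA carboxylase, the enzyme that commits carbon to fatty acid synthesis, and after removing the group means r was 0.96, 0.90 and 0.87. For Pnpla2 they were the sialyltransferase gene St3gal1, the scaffold gene Gphn and the sugar transporter gene Slc2a8 (r = 0.98 each), and after removing the group means r was 0.98, 0.97 and 0.97.

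Values of the nearest gene for Hsd11b1 and for Pnpla2, and of Acaca for Lpl, showed parts of each tumour pattern. Acaca read 13.38, 11.72, 11.39 and 11.90 in SKI-606 and 10.42, 11.35, 10.94 and 11.05 in vehicle replicates 1 to 4, with SKI-606 replicate 1 far above the others as for Lpl. Its highest vehicle tumour was replicate 2. Lpl and the genes closer to it, P3h2 (7.93) and Ehd4 (11.13), were highest in replicate 4 among vehicle tumours. St3gal1 read 9.15, 7.59, 10.02 and 8.63 in SKI-606 and 7.43, 7.08, 7.35 and 8.21 in vehicle replicates 1 to 4, the order of Pnpla2 in the SKI-606 group. Cel read 10.93, 9.72, 8.54 and 10.87 in SKI-606 and 7.26, 8.71, 7.99 and 6.91 in vehicle replicates 1 to 4, with SKI-606 replicate 3 the lowest of its group as for Hsd11b1.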

How the data were processed

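Total RNA (8 ng per sample, per the labels' protocols) of 8 mammary tumours was measured on one-colour Illumina arrays, 4 with SKI-606 and 4 with vehicle, grouped by title. The deposited signal table holds an average intensity per probe, neither background-subtracted nor normalized, and, per the file headers, a detection p-value. The authors also deposited a normalized intensity table, used as an alternative. Array software and probe sequences were not given in these sources.

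The deposited intensities were background-corrected, quantile-normalized and put on the log2 scale by neqc (limma 3.58.1, R 4.3.3, offset 16). Kept were 12281 probes detected (p under 0.05) on at least 4 arrays. Groups were compared by lmFit and eBayes with Benjamini-Hochberg adjustment, and the code was tested on simulated data. Since separate animals are not stated, p-values reflect only variation among these arrays, which may be technical, and with so few arrays precision is limited.

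Probe numbers after 1 or 2 zeros were matched to gene IDs of a RefSeq table (GRCm38.p6): 93.3% of 9490 matched, and 48.7% after adding 1. A gene's brightest kept probe represents it. Listed genes count as measured only with a named and kept probe, so those not measured include genes with no probe named here. The genes and lists were chosen with earlier results of these data known. From each list all measured genes were named where at most 5 were measured, otherwise the 4 with the smallest p, plus direct partners and, per gene, the 3 with the highest correlation (SD over arrays at least 0.3). Vehicle replicate 3 has no number in its title. Same-numbered tumours 1, 2 and 4 deviated together with r = 0.0044, 0.63 and -0.018. Differently numbered tumours were not compared, so these values cannot decide whether the numbers pair the samples. The main fit used no pairing, and a replicate block was run as an alternative. The alternatives tried are given below. Figures used matplotlib 3.10.9.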

Additional observations from a re-analysis of the deposited data

Results flagged for a closer look

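Among 98 groups of 4 values, 11 held a tumour whose gap to the nearest other, divided by the group's range, exceeded Dixon's 95% critical value, and about 1 in 20 groups would by chance. None of the 11 concerned Hsd11b1, Lpl or Pnpla2. In SKI-606 replicate 1, Gpat4 was far above the rest (12.55 against at most 11.17, ratio 0.915), Actn3 was high (7.61 against at most 6.14, ratio 0.937) and Fbln1 low (6.72 against at least 7.72, ratio 0.843). In SKI-606 replicate 2, Lrp1 (8.29 against at most 7.77, ratio 0.838), C1qb (9.92 against at most 9.44, ratio 0.840) and Lyz2 (11.22 against at most 10.20, ratio 0.832) were high. Gpihbp1 was low in SKI-606 replicate 3 (6.55 against at least 7.41, ratio 0.8291). In vehicle tumours, Cebpb was high in replicate 1 (12.75, ratio 0.846) and Fitm2 low there (6.16, ratio 0.908), Krt8 was low in replicate 2 (12.89, ratio 0.909) and Actn3 high in replicate 4 (7.74, ratio 0.992).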

How the results depend on the processing

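Hsd11b1, Lpl and Pnpla2 kept a difference above 0 under every alternative run on their detected probes. With 1 tumour left out, Hsd11b1 ran from 1.12 to 1.52, Lpl from 1.10 to 2.14 and Pnpla2 from 0.35 to 0.80. The undetected Lpl probe gave -1.1e-04. With the replicate block on numbers 1, 2 and 4 the differences were 1.55, 2.20 and 0.36, and 0 probes were called. Of all probes, 1 was called, and 0 with median scaling, with an offset of 50, with detection required on all 8 arrays and with a trend and robust prior. Array weights called 185, an adjusted p under 0.1 called 30, and an unadjusted p under 0.05 called 2004. With 1 tumour left out 0 to 13 were called: 7 when SKI-606 replicate 1 was dropped, 13 when SKI-606 replicate 2 was, and 0 for SKI-606 replicate 3 and each vehicle replicate. Median scaling left the median of all probes at -0.12. There the list medians were -0.27 for glucocorticoid-induced genes, -0.20 for epithelial, -0.44 for macrophage and 0.31 for endothelial markers. The triglyceride median was 0.28 without background correction, 0.35 in the deposited table and 0.55 with detection on all 8 arrays. Detection on all 8 arrays also gave 0.44 for lipolysis genes and 0.12 for adipogenic factors, and fewer genes enter there. With no filter, adipogenic factors were at 0.0041 and adipocyte markers at 0.028. The block gave -0.17 for epithelial markers and array weights 0.28 for fibroblast markers. With 1 tumour left out, adipogenic factors ran from -0.077 to 0.081, epithelial markers from -0.19 to 0.12, fibroblast markers from 0.30 to 1.13 and glucocorticoid activation genes from -0.084 to 0.055. Listed genes called numbered 3 with array weights (Ebf1, Fbln1 and Robo4, at 0.35, 1.22 and 0.80) and 0 to 1 with 1 tumour left out (Fbln1 without SKI-606 replicate 1, at 1.35). Some differences turned sign, that of Col1a1 from 0.42 and the others from values near 0: with median scaling Lpin2 (-0.036), Krt19 (-0.047), Actn3 (-0.049) and Gpihbp1 (-0.13), with cyclic loess Krt18 (0.036), with the replicate block Actn3 (-0.0016), and with array weights Fitm2 (0.012) and Col1a1 (-0.089). With 1 tumour left out, Cebpb ran from -0.21 to 0.081, Krt8 from -0.19 to 0.073, Krt18 from -0.30 to 0.17, Cd68 from -0.22 to 0.13, Actn3 from -0.36 to 0.45, Gpihbp1 from -0.025 to 0.32 and Vldlr from -0.49 to 0.14. With median scaling Lrp1 was at 0.25, Ebf1 at 0.14 and Nr1h3 at 0.29. The cause of these shifts was not tested. The Nr3c1, Hsd11b2, Cd36 and Fabp4 probes were too dim to compare.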
